A study of Mus musculus with 20 samples.

Results

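The genes described here were 10 members of the tumour necrosis factor (TNF) superfamily of ligands and receptors, taken by symbol from the 39179 gene IDs counted in each of 20 libraries of mouse CD4 T cells. The ligands were Tnf, Lta, Cd40lg, Tnfsf8 and Tnfsf11, and the receptors Tnfrsf4, Tnfrsf9, Tnfrsf18, Tnfrsf1b and Cd27. All 10 passed the filter on low counts in both parts of the series, with 118 to 29746 counts per library. The mice were C57BL/6, and their ages are not in the labels used here. For the transfer part, CD4 T cells came from wild-type Il17f/Thy1.1 reporter mice (CD45.1) and from Il6ra-/- Il17f/Thy1.1 mice (CD45.2), which lack the alpha chain of the IL-6 receptor. Both were grown for 6 days as Th17 cells with anti-CD3, antibodies to IFN-g and IL-4, irradiated antigen-presenting cells, 2.5 ng/ml TGF-beta and 20 ng/ml hyper-IL-6, in which the cytokine is joined to soluble IL-6 receptor and which therefore also acts on cells without a receptor of their own. The reporter-positive (Thy1.1+) fraction was sequenced before transfer (2 libraries for each genotype). Then 200000 cells of each genotype were injected together into Rag1-/- hosts, which make no lymphocytes with antigen receptors, and 4 weeks later CD4+ TCRb+ colon cells were sorted by CD45 allele from pooled mice, with no gate on the reporter (3 libraries per genotype). For the culture part, naive CD4 T cells (Tn) of IL-17F/Thy1.1 Hz and IL6Ra-/-. IL-17F/Thy1.1 Hz mice were set beside Thy1.1+ cells grown for 6 days with 2.5 ng/ml TGF-beta and either 20 ng/ml IL-6 (wild type) or 63 ng/ml hyper-IL-6 (both genotypes), with 2 libraries per group. The labels give 4 h of PMA and ionomycin, a chemical T cell stimulus, for all 10 libraries of that part, the naive ones included. Nothing in the labels says that the libraries of a group are from separate animals, and p-values then reflect only how far these libraries spread.

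TNF superfamily ligands are mostly trimeric proteins of the cell surface, some of which are also shed, and their receptors signal by binding TRAF adaptors or, for some, death-domain adaptors. In T cells the receptors OX40 (Tnfrsf4), 4-1BB (Tnfrsf9) and GITR (Tnfrsf18) act as costimulators that increase after activation, while CD27 is already present on naive cells. The ligands carry help to other cells, such as CD40 ligand to B cells and dendritic cells and RANK ligand (Tnfsf11) to myeloid cells and bone.

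Each transfer library held 12718633 to 23745060 gene counts and each culture library 20160774 to 46848016. Levels are CPM (counts scaled to the library total with TMM factors), listed by replicate number, and group values are means ± SD. Log2 fold changes are given ± SE from edgeR's quasi-likelihood F test, with Benjamini-Hochberg adjustment over all genes tested in that part, and a gene was called at an adjusted p under 0.05. The 10 CD4 T markers were all detected in every group, with summed levels of 4689 to 8440.0 CPM in the transfer part and 2230.5 to 5511 in the culture part. Il6ra counts do not check the genotype labels, since the deleted part of the gene is not given. In bulk RNA, fewer cells of a type and less RNA per cell cannot be told apart.

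Several members are neighbours in the genome (GRCm38). Tnf (chromosome 17, 35199381 to 35202007, minus strand) lies 1157 bases from Lta (35203165 to 35205351, same strand), and Tnfrsf4 (chromosome 4, 156013843 to 156016612) lies 9551 bases from Tnfrsf18 (156026164 to 156028895, both on the plus strand). Chromosome 4 also holds Tnfrsf9 (150914562 to 150946102), Tnfrsf1b (145213463 to 145246870) and Tnfsf8 (63831308 to 63861347). Cd40lg is on the X chromosome (57212143 to 57224042), Tnfsf11 on chromosome 14 (78277445 to 78308043) and Cd27 on chromosome 6 (125232622 to 125237010). An antisense gene, Gm16008, shares 414 exonic bases with Tnfrsf18. Its own counts summed to 1023 over the 20 libraries, and since no source used here gives the strand setting of the counting, the reads of this pair cannot be told apart.

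The sequences before the start sites of 5 members are printed because these genes give the main contrasts below: the neighbours Tnf and Lta, Tnfsf11 with the largest change in culture, Tnfrsf9 with the largest fall after transfer in wild-type cells, and Tnfrsf1b with a rise there. Each is the 250 bases before a RefSeq start site (GRCm38.p6), 5′ to 3′ on the gene's strand, and none overlaps an annotated exon. Capitals mark matches on either strand to GGAAA, the core of NFAT sites, NFAT being a calcium-driven activator of T cell genes. The windows are chr17:35202008-35202257 (Tnf, minus), chr17:35205352-35205601 (Lta, minus), chr14:78308044-78308293 (Tnfsf11, minus), chr4:150919905-150920154 (Tnfrsf9, plus, the first of 2 listed starts) and chr4:145246871-145247120 (Tnfrsf1b, minus).
Tnf: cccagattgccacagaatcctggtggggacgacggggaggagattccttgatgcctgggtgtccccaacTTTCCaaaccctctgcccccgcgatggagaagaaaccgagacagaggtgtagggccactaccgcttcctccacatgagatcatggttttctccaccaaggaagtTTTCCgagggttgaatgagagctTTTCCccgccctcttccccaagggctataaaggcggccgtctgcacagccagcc
Lta: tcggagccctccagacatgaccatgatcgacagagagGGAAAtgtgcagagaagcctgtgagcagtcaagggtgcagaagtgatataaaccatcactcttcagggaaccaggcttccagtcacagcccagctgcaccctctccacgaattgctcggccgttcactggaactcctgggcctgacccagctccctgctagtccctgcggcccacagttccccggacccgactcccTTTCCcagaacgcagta
Tnfsf11: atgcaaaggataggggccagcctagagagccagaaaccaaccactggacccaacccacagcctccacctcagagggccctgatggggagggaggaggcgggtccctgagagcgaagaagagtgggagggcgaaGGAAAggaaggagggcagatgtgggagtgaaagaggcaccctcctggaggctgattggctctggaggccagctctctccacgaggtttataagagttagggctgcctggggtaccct
Tnfrsf9: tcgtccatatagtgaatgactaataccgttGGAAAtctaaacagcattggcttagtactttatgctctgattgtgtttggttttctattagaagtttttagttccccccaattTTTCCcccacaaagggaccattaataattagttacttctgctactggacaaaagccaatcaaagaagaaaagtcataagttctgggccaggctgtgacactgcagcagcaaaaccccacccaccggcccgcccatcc
Tnfrsf1b: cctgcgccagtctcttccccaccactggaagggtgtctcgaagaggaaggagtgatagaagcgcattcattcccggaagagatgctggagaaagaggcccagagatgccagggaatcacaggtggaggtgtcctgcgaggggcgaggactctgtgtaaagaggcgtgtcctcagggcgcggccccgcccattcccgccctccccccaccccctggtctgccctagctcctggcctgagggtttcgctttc

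Tnf held 3 such matches, Lta 2, Tnfrsf9 2, Tnfsf11 1 and Tnfrsf1b 0, and 55.6% of 32851 promoter windows of the same length held at least 1. RefSeq windows were found for 9 of the 10 members, 10 windows in all. The second Tnfrsf9 window, which overlaps an exon and is not printed, was the only 1 of the 10 with a match to the NF-kB motif or to the AP-1 motif (TGANTCA). Of all windows, 7.25% held the NF-kB motif and 6.75% the AP-1 motif, both strands searched, and an NF-kB match can overlap a GGAAA match. The TATA motif (TATAAA) was found in the windows of Tnf, Lta and Tnfsf11 and in 12.4% of all windows. A match describes letters only.

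Per base of exon, the order of the members differed between groups. On the scale of CPM per kilobase of annotated exon, wild-type cells before transfer had most Tnfrsf4 (393 ± 163, n = 2) and Tnfrsf18 (294 ± 150.5), then Tnfrsf9 (117 ± 17.2) and Lta (108 ± 41.3), and least Tnfrsf1b (18.1 ± 5.89). Neither Tnfrsf4 and Tnfrsf18 nor Tnfrsf9 and Lta differed beyond their SD. In wild-type colon cells the order began with Cd40lg (141 ± 0.938 per kilobase, n = 3), Tnfrsf4 (106 ± 30.1), Tnf (90.2 ± 7.19) and Tnfsf11 (80.8 ± 8.80), and ended with Cd27 (8.70 ± 2.04). The levels of Tnfrsf4 and Tnf there, and of Tnf and Tnfsf11, were closer than their summed SDs. Naive wild-type cells had most Cd27 (134 ± 20.1 per kilobase, n = 2) and Cd40lg (100.7 ± 0.216), and least Tnfrsf9 (3.35 ± 1.08) and Tnfsf11 (2.54 ± 0.371). After culture with IL-6 the order began with Tnfrsf4 (439 ± 27.0 per kilobase), Tnfsf11 (160.0 ± 1.61), Lta (88.9 ± 7.64) and Tnf (77.8 ± 16.7).

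**Figure D1:**
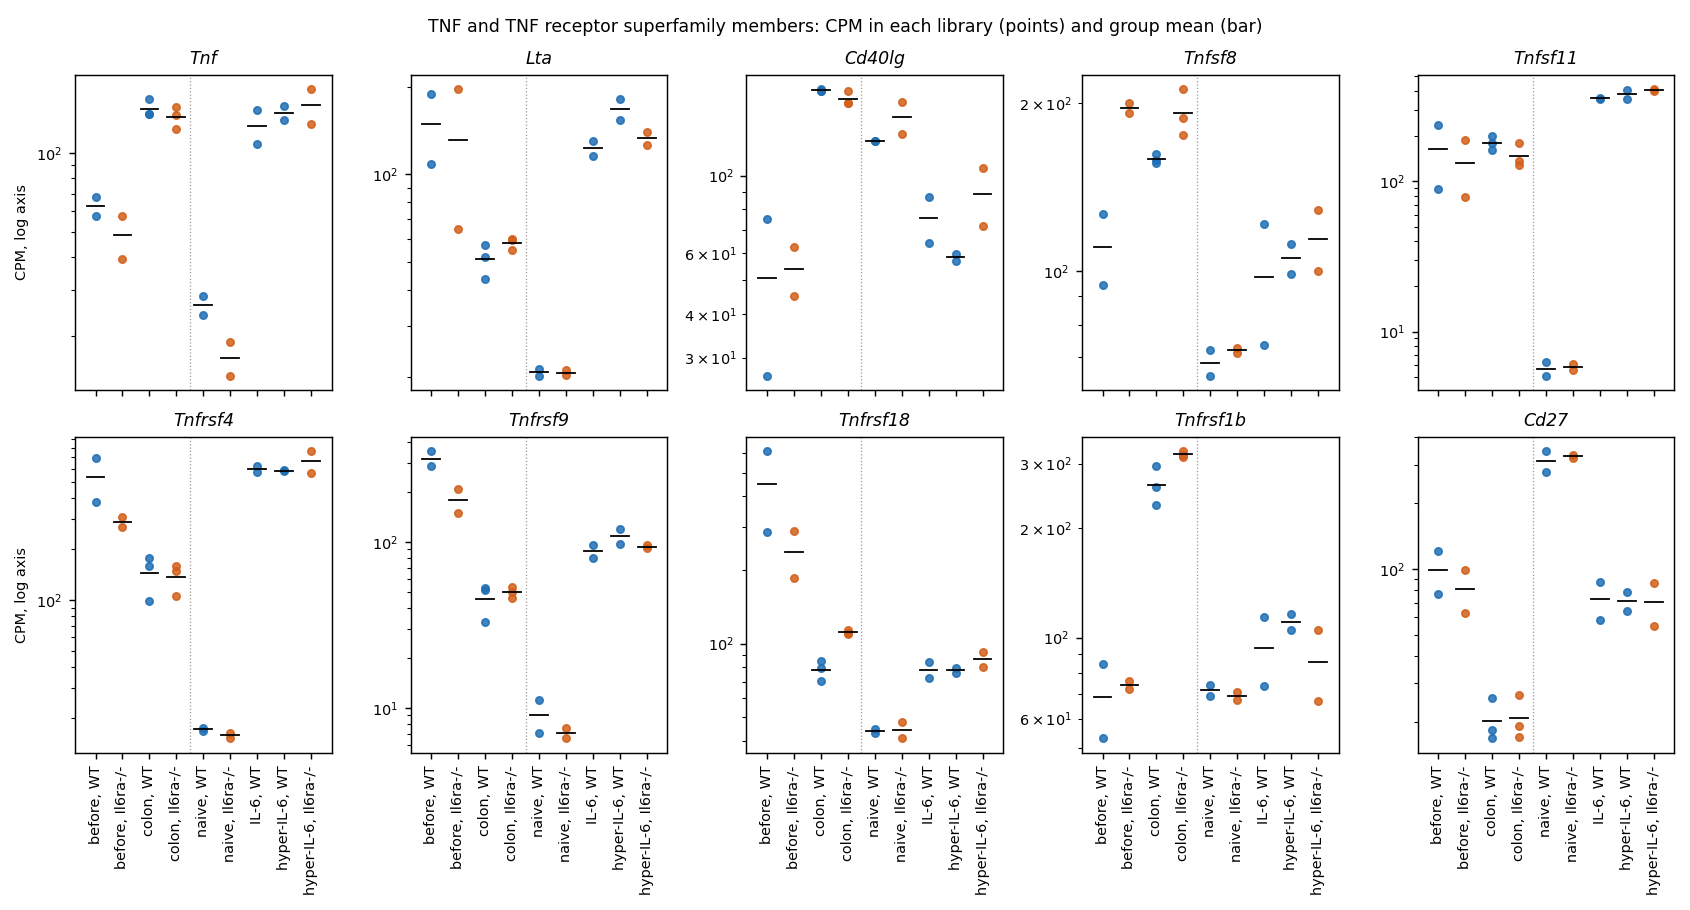
CPM of the 10 members in each library (points, log axis) by group, with the group mean as a black line, wild type in blue and Il6ra-/- in orange, and the transfer part left and the culture part right of the dotted line. Tnfsf11 and Tnfrsf4 are lowest in naive cells, Cd27 is lowest in the colon, and Tnfrsf1b is highest in the colon.

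The change from before transfer to the colon was the first comparison. In wild-type cells, Tnf, Cd40lg and Tnfrsf1b rose and Lta, Tnfrsf4, Tnfrsf9, Tnfrsf18 and Cd27 fell, while Tnfsf8 and Tnfsf11 did not pass. So 3 of 10 members were called higher and 5 lower. Of all 14225 genes tested, 17.1% were called higher and 15.8% lower. The median log2 fold change was -0.70 over the members and -0.02 over all genes. For Il6ra-/- cells the counts were also 3 higher and 5 lower, with 13.8% of all genes called higher and 13.2% lower, and with medians of -0.56 and -0.0022. The stages also differ in tissue, time, the reporter gate and the cells around them, which cannot be told apart.

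Among the ligands, Tnf, the inflammatory cytokine of the family, was at 67.7 and 57.4 CPM before transfer and at 162, 142 and 141 in the colon in wild-type cells. Its Il6ra-/- levels were 57.7 and 39.3 before and 151, 139 and 123 after. All 6 colon libraries were above all 4 libraries before transfer. The log2 fold change was 1.24 ± 0.22 in wild type (adjusted p = 0.00182) and 1.51 ± 0.22 in Il6ra-/- cells (adjusted p = 0.000633), or 2.36-fold and 2.84-fold higher.

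Lta, whose product lymphotoxin alpha shares the receptors of TNF or joins lymphotoxin beta, went the other way. Before transfer it was at 189 and 109 CPM in wild-type and 197 and 64.6 in Il6ra-/- cells, and in the colon at 57.2, 51.9 and 43.5 and at 59.8, 59.3 and 54.9. The values before transfer were spread widely, and the lowest of them, Il6ra-/- library 1, lay close to the colon values. The log2 fold change was -1.55 ± 0.38 in wild type (adjusted p = 0.0114) and -1.17 ± 0.38 in Il6ra-/- cells (adjusted p = 0.0433). Without wild-type library 0 before transfer the first was -1.08, adjusted p = 0.0706. The second was lost in 10 of 17 alternatives, and was -0.18, adjusted p = 0.742 without Il6ra-/- library 0 before transfer, and -0.94, adjusted p = 0.0785 with the replicate number as a block.

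Cd40lg, the ligand of CD40, rose in both genotypes. It was at 75.2 and 26.6 CPM before transfer and at 176, 178 and 175 in the colon in wild-type cells, and at 62.6 and 45.0 before and 175, 162 and 161 after in Il6ra-/- cells. The colon libraries lay close together and all above those before transfer, which were spread. The log2 fold changes were 1.79 ± 0.36 (adjusted p = 0.00438) and 1.63 ± 0.36 (adjusted p = 0.00746). Without Il6ra-/- library 1 before transfer the second was 1.41, adjusted p = 0.0674.

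Tnfsf8 encodes the CD30 ligand. It was at 126 and 94.2 CPM before transfer and at 162, 158 and 156 in the colon in wild-type cells (0.53 ± 0.19, adjusted p = 0.0522), where DESeq2 called it. Its Il6ra-/- levels were 200.3 and 192 before and 176, 212 and 188 after (-0.03 ± 0.18, adjusted p = 0.93). The stages overlapped in Il6ra-/- cells and did not in wild type.

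Tnfsf11, the gene of RANK ligand, had similar means at both stages over libraries that were far apart. Before transfer it was at 238 and 88.4 CPM in wild-type and 188 and 78.1 in Il6ra-/- cells, where the first library of each is from experiment 1 and the second from experiment 2. In the colon it was at 161, 201 and 179.8 and at 129, 136 and 181, with the first library of each from experiment 1 and the others from experiment 2. From before transfer to the colon the log2 ratio of the CPM was -0.56 and -0.55 in experiment 1 (wild type and Il6ra-/-) and 1.11 and 1.02 in experiment 2, so the directions were opposite in the experiments and alike in the genotypes. The fitted log2 fold changes were 0.14 ± 0.42 (adjusted p = 0.812) and 0.16 ± 0.42 (adjusted p = 0.831). With 1 library per genotype and experiment before transfer, the difference between experiments was not tested.

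The costimulatory receptors fell. Tnfrsf4, or OX40, was at 379 and 694 CPM before transfer and at 98.2, 158 and 177 in the colon in wild-type cells, and at 270.0 and 311 before and 105, 159 and 147 after in Il6ra-/- cells. No colon library reached the lowest library before transfer. The log2 fold change was -1.89 ± 0.31 (adjusted p = 0.0014) in wild type and -1.08 ± 0.31 (adjusted p = 0.0259) in Il6ra-/- cells. The Il6ra-/- call was lost without either of its libraries before transfer or without its colon library 0 or 2, with adjusted p up to 0.112.

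Tnfrsf9, or 4-1BB, had the largest fall of the 10 in wild-type cells. It was at 351 and 285 CPM before transfer and at 32.9, 52.4 and 51.2 in the colon (-2.80 ± 0.24, adjusted p = 2.71e-05), or 6.98-fold lower. Its Il6ra-/- levels were 150.2 and 209 before and 53.3, 45.6 and 49.97 after (-1.86 ± 0.24, adjusted p = 0.00032), or 3.62-fold lower. The colon values of the genotypes overlapped, and the values before transfer did not, with the wild-type libraries higher.

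Tnfrsf18 encodes GITR, which regulatory T cells carry at a high level. It was at 286 and 610.3 CPM before transfer and at 79.5, 84.9 and 70.6 in the colon in wild-type cells (-2.52 ± 0.30, adjusted p = 0.000177). Its Il6ra-/- levels were 185 and 287 before and 114, 109.6 and 111 after (-1.08 ± 0.29, adjusted p = 0.0192). All libraries before transfer were above all colon libraries. The Il6ra-/- call was lost without its library 1 before transfer (-0.73, adjusted p = 0.161) and without any 1 of its 3 colon libraries (adjusted p up to 0.0615). The 10 regulatory T markers, all detected, summed to 2809 to 3704 CPM before transfer and 1405 to 2707 in the colon in wild-type cells, and to 2914 to 3002 and 1753 to 2429 in Il6ra-/- cells. Of these markers, 3 were called higher and 5 lower in wild-type, and 3 higher and 4 lower in Il6ra-/- cells. Over all genes, 17.1% were called higher and 15.8% lower in wild-type and 13.8% and 13.2% in Il6ra-/- cells. Foxp3, the regulator of regulatory T cells, had means of 5.44 and 8.94 CPM before and 22.2 and 56.1 after. The part of these markers in the result was not tested.

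Tnfrsf1b encodes TNFR2, the TNF receptor that has no death domain. It was at 84.8 and 53.0 CPM before transfer and at 232, 295 and 259 in the colon in wild-type cells (1.93 ± 0.23, adjusted p = 0.000202). Its Il6ra-/- levels were 76.0 and 72.2 before and 316, 313 and 324 after (2.10 ± 0.23, adjusted p = 0.000128). The colon values were 3.80-fold and 4.29-fold higher, with no overlap. Myeloid cells also express Tnf and Tnfrsf1b. The 10 myeloid markers summed to 23.8 to 40.4 CPM before transfer and 146 to 364 in the colon in wild-type cells, and to 16.7 to 65.8 and 137 to 363 in Il6ra-/- cells. Of them, 9 were called higher in wild-type and 7 in Il6ra-/- colon cells, with Lyz2 at means of 129 and 123 CPM and the macrophage gene C1qa at 15.4 and 11.3. Over all genes, 17.1% were called higher in wild-type and 13.8% in Il6ra-/- cells. The 8 epithelial markers summed to 31.6 to 97.7 CPM before transfer and 164 to 639 in the colon. The part of these cells in the rises was not tested.

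Cd27, the receptor of CD70, fell in both genotypes. It was at 76.7 and 120.2 CPM before transfer and at 16.8, 18.3 and 25.7 in the colon in wild-type cells (-2.28 ± 0.30, adjusted p = 0.000375), and at 62.8 and 98.6 before and 26.6, 19.0 and 17.0 after in Il6ra-/- cells (-1.95 ± 0.30, adjusted p = 0.000935). Every library before transfer was above every colon library. Of the 8 naive and central memory T markers, 4 fell in each genotype. Over all genes, 15.8% were called lower in wild-type and 13.2% in Il6ra-/- cells. The part of these markers in the fall of Cd27 was not tested.

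**Figure D2:**
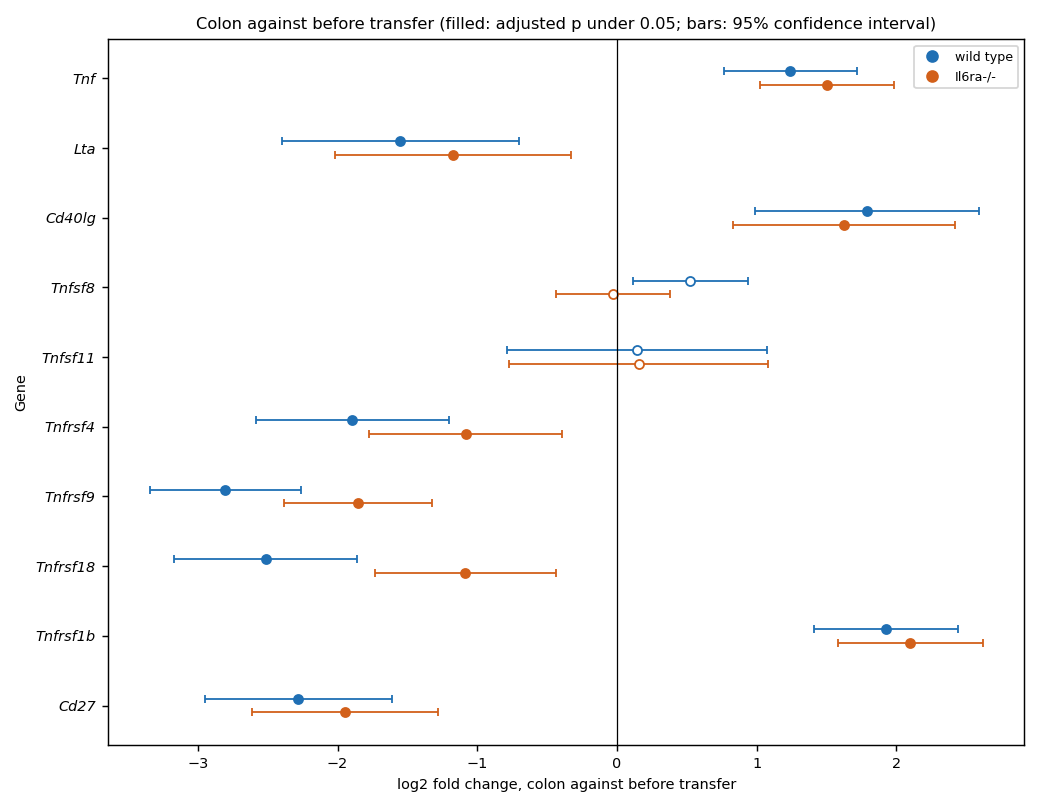
Log2 fold change of the 10 members, colon against before transfer, in wild-type (blue) and Il6ra-/- cells (orange), with 95% confidence intervals as bars and with filled points for an adjusted p under 0.05. Tnf, Cd40lg and Tnfrsf1b lie above 0 and Lta, Tnfrsf4, Tnfrsf9, Tnfrsf18 and Cd27 below 0 in both genotypes.

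Whether the fall of Tnfrsf9, Tnfrsf18 and Tnfrsf4 differed between genotypes was tested as a stage by genotype term. Its log2 values, Il6ra-/- minus wild type, were 0.95 ± 0.34 for Tnfrsf9, 1.43 ± 0.42 for Tnfrsf18 and 0.81 ± 0.45 for Tnfrsf4 (adjusted p = 0.953, 0.953 and 0.953). No member was called by edgeR or DESeq2, nor was any gene by edgeR (0.0% of 14225). At an unadjusted p under 0.05 there were 2 of 10 members, Tnfrsf9 and Tnfrsf18, and 377 of the 14225 genes. Without wild-type library 0 before transfer, 4.0% of 14936 genes were called, with Tnfrsf18 (1.84, adjusted p = 0.017) and Cd40lg among them. Without wild-type library 1 instead, 0 members were called and Tnfrsf18 was at 0.78, adjusted p = 1. Either fit leaves 1 wild-type library before transfer, whose spread is assumed to be like that of the other groups. With the library number as a block within a stage the Tnfrsf18 value was 1.37 ± 0.26 (adjusted p = 0.37). With all libraries and no block, the other members, none of them called, were at 0.27 for Tnf, 0.38 for Lta, -0.16 for Cd40lg, -0.55 for Tnfsf8, 0.01 for Tnfsf11, 0.17 for Tnfrsf1b and 0.33 for Cd27.

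The next comparison was between genotypes in the colon, where the cells of both had shared hosts. No member was called by edgeR or DESeq2, and 0.155% of all genes were called. At an unadjusted p under 0.05 there were 0 of 10 members and 648 of 14225 genes. The median log2 fold change was 0.09 over the members and 3.9e-05 over all genes. Tnfrsf18 had the largest difference, with 114, 109.6 and 111 CPM in Il6ra-/- and 79.5, 84.9 and 70.6 in wild-type cells. Its groups did not overlap, and its log2 fold change was 0.51 ± 0.27 (95% confidence interval -0.08 to 1.10, adjusted p = 1). Foxp3 lay between 35.7 and 88.9 CPM in these Il6ra-/- libraries and between 19.3 and 23.7 in the wild-type ones. Of the 10 regulatory T markers, all detected, 0 were called between these groups and 7 had an unadjusted p under 0.05, all higher in Il6ra-/- cells. Their median log2 fold change was 1.12, from -0.53 for Ctla4 to 2.27 for Gpr83, and their summed level was 1753 to 2429 CPM in Il6ra-/- and 1405 to 2707 CPM in wild-type libraries. Their part in this difference was not tested.

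Of the other members, Tnfrsf1b (0.28, interval -0.15 to 0.71) was higher in every Il6ra-/- colon library than in every wild-type one. The same held for Tnfsf8 (0.28, interval -0.09 to 0.64), and the opposite for Cd40lg (-0.09, interval -0.76 to 0.58). Groups of 3 libraries can lie apart at a small difference, as those of Cd40lg did. The share of all genes whose groups lay apart was not counted in this or any other comparison. The groups of Tnf (-0.10, interval -0.51 to 0.31), Tnfrsf4 (-0.07, -0.70 to 0.55), Tnfrsf9 (0.13, -0.36 to 0.61) and Cd27 (0.05, -0.56 to 0.65) overlapped. So did those of Lta (0.19, -0.58 to 0.96) and Tnfsf11 (-0.28, -1.11 to 0.55), whose intervals reached about 1 on the log2 scale. All 10 adjusted p were 1.

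Before transfer no member was called between genotypes by edgeR or DESeq2, and 0.00703% of all genes were called. At an unadjusted p under 0.05 there were 4 of 10 members and 345 of 14225 genes. Tnfsf8 was at 200.3 and 192 CPM in Il6ra-/- and 126 and 94.2 in wild-type cells (0.83 ± 0.20, adjusted p = 0.901). Tnfrsf4 (-0.89 ± 0.35), Tnfrsf9 (-0.82 ± 0.27) and Tnfrsf18 (-0.92 ± 0.33) had lower means in Il6ra-/- cells (adjusted p = 0.982 each). The Tnfrsf18 groups overlapped, and those of the other 3, with 2 libraries per group, did not. Within each of the 2 experiments Tnfrsf18 was lower in the Il6ra-/- library, as were Tnf, Tnfsf11, Tnfrsf4, Tnfrsf9 and Cd27, and Tnfsf8 was higher. Each experiment held 1 library per genotype before transfer, and the share of all genes with 1 direction in both experiments was not counted. With the library number as a block within a stage, the values were 0.85 ± 0.20 (adjusted p = 0.792) for Tnfsf8, -0.86 ± 0.21 (adjusted p = 0.792) for Tnfrsf18, -0.82 ± 0.23 (adjusted p = 0.792) for Tnfrsf4 and -0.83 ± 0.28 (adjusted p = 0.792) for Tnfrsf9, and 0 members were called. Without the block, the remaining 6 were at -0.37 (Tnf), -0.29 (Tnfsf11), -0.29 (Cd27), -0.19 (Lta), 0.08 (Cd40lg) and 0.10 (Tnfrsf1b).

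The wild-type libraries before transfer number 2, and the values moved with which of them was left out. Without library 0, 7.71% of 14936 genes were called, with 3 members among them: Tnfsf8 (1.08, adjusted p = 0.0135), Tnfrsf18 (-1.35, adjusted p = 0.0138) and Cd40lg (1.04, adjusted p = 0.0271). Without library 1 no member was called, with Tnfsf8 at 0.63, Tnfrsf18 at -0.28, Cd40lg at -0.49, Tnfrsf4 at -0.39 and Tnfrsf9 at -0.97 (adjusted p = 1 each). In both fits the lone wild-type library is assumed to vary like the other groups. Library 1 was the highest of the 4 in Tnfrsf4, Tnfrsf18 and Cd27 and the lowest in Cd40lg, Tnfsf8 and Tnfrsf1b.

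**Figure D3:**
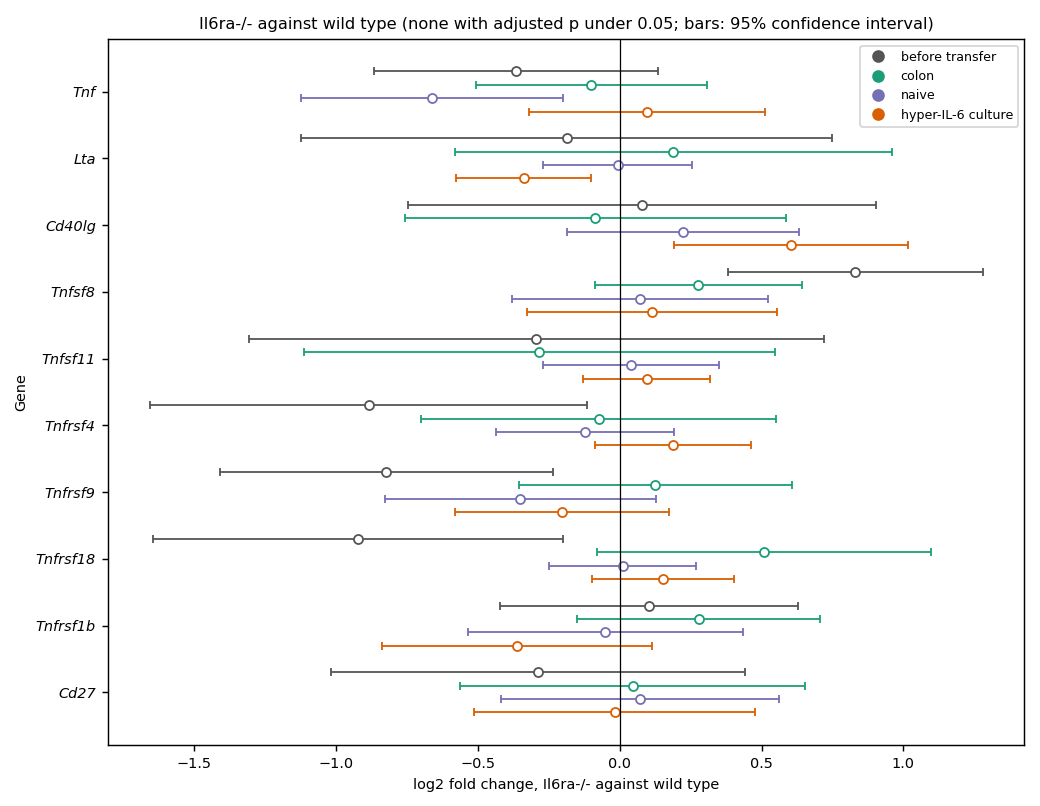
Log2 fold change of the 10 members in Il6ra-/- against wild-type cells within each setting named in the legend, with 95% confidence intervals as bars and open points for an adjusted p of 0.05 or more. All points are open.

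The culture part sets cultured against naive cells. The cultured cells also had TGF-beta, 6 days of growth and the reporter gate, and no culture was without IL-6 or hyper-IL-6. The cultures of the transfer part were also given anti-CD3 and antigen-presenting cells. Whether the cultures of this part were is not stated here, and such activation may be a further difference from naive cells. The shares of all these in a change cannot be told apart. With IL-6, 7 members were higher and 2 lower in wild-type cells, with hyper-IL-6 8 were higher and 2 lower, and in Il6ra-/- cells with hyper-IL-6 7 were higher and 2 lower. Of 14926 genes tested, 37.0% were called higher and 33.6% lower with IL-6, 36.8% and 33.5% with hyper-IL-6 in wild type and 37.5% and 34.4% with hyper-IL-6 in Il6ra-/- cells. The medians over the members were 1.56, 1.63 and 1.82 on the log2 scale, and those over all genes 0.05, 0.04 and 0.04. Both wild-type comparisons share the naive libraries and are not independent. Below, values for a gene follow this order of comparisons.

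Tnfsf11 changed most. It was at 6.26 and 5.08 CPM in naive wild-type and 6.09 and 5.55 in naive Il6ra-/- cells. Cultured cells had 360.4 and 355 with IL-6, 355 and 407 with hyper-IL-6, and 413 and 401 in Il6ra-/- cells. The log2 fold changes were 5.98 ± 0.13, 6.07 ± 0.13 and 6.13 ± 0.13 (adjusted p = 2.06e-10, 1.97e-10 and 1.57e-10), or 63.3-fold, 67.3-fold and 70.0-fold higher, and the naive and cultured libraries were far apart.

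Tnfrsf4 came next, at 16.7 and 17.5 CPM in naive wild-type and 16.3 and 15.1 in naive Il6ra-/- cells, and at 626 and 574 with IL-6, 587 and 577 with hyper-IL-6 and 567 and 758 in Il6ra-/- cells. Its log2 fold changes were 5.13 ± 0.15, 5.09 ± 0.15 and 5.40 ± 0.15. Tnfrsf9 was at 11.2 and 7.03 CPM in wild-type and 6.56 and 7.59 in Il6ra-/- naive cells and between 79.8 and 119 in the 6 cultured libraries (3.28 ± 0.20, 3.57 ± 0.20 and 3.72 ± 0.20). No cultured library overlapped a naive one in these receptors. Tnfrsf18, the neighbour of Tnfrsf4, rose less, from 45.0 and 43.1 CPM and from 47.7 and 41.1 to between 72.7 and 92.7 (0.83 ± 0.12, 0.82 ± 0.12 and 0.96 ± 0.12). The regulatory T markers summed to 219.8 to 324 CPM in naive and 2313 to 2607 in cultured cells, led there by Il2ra and Capg, which activated T cells also express, while Foxp3 lay between 14.6 and 23.7 and between 3.11 and 5.93. Their part in these rises was not tested.

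Tnf and Lta, which went opposite ways after transfer, both rose here. Tnf was at 24.0 and 28.3 CPM in naive wild-type and 14.05 and 18.9 in naive Il6ra-/- cells, and at 147 and 108 with IL-6, 134 and 151 with hyper-IL-6 and 129 and 176 in Il6ra-/- cells (2.28 ± 0.20, 2.44 ± 0.20 and 3.20 ± 0.21). Lta was at 20.2 and 21.4 and at 20.2 and 21.1 CPM in naive cells, and at 115 and 130.4, then 154 and 182, then 139.8 and 126 in culture (2.56 ± 0.12, 3.02 ± 0.12 and 2.69 ± 0.12). Every cultured library was above every naive one for both genes.

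Cd27 and Cd40lg fell. Cd27 was at 279 and 345 CPM in naive wild-type and 322 and 334 in naive Il6ra-/- cells, and at 58.1 and 86.9 with IL-6, 78.3 and 64.4 with hyper-IL-6 and 86.0 and 54.9 in Il6ra-/- cells (-2.11 ± 0.23, -2.13 ± 0.23 and -2.22 ± 0.23). Cd40lg was at 126 and 126 and at 162 and 132 CPM in naive cells and at 87.0 and 63.9, then 57.0 and 59.5, then 71.8 and 105 in culture (-0.74 ± 0.19, -1.11 ± 0.19 and -0.73 ± 0.19, adjusted p = 0.00449, 0.000306 and 0.00447). Neither gene had a cultured library at a naive level. The first Cd40lg call was lost without IL-6 library 2 (adjusted p = 0.056) and the third without naive Il6ra-/- library 1 (adjusted p = 0.0504). In each of the same comparisons 9 of 10 CD4 T markers and 8 of 8 naive and central memory T markers fell, the latter from 7242 to 7687 CPM in naive to 565 to 763 in cultured cells. Over all genes, 33.5% to 34.4% were called lower there. B cell markers summed to 409 to 462 CPM in naive and 3.44 to 6.88 in cultured cells, with means in naive cells of 445 and 416 for Ighm. The part of these lists in the falls was not tested.

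Tnfsf8 and Tnfrsf1b had the smallest changes. Tnfsf8 was at 72.0 and 64.8 and at 72.6 and 71.2 CPM in naive cells, and at 122 and 73.5, then 98.8 and 112, then 99.7 and 128 in culture (0.51 ± 0.20, 0.62 ± 0.20 and 0.67 ± 0.20, adjusted p = 0.0405, 0.0173 and 0.0121). Its call with IL-6 was lost in 7 of 16 alternatives, among them without IL-6 library 1 (0.12, adjusted p = 0.559) and without either naive wild-type library. Its calls with hyper-IL-6 were lost without hyper-IL-6 library 2 or naive library 2 of the same genotype, with adjusted p up to 0.0985. Tnfrsf1b was at 74.3 and 69.1 and at 71.0 and 67.4 CPM in naive cells, and at 73.9 and 114, then 116 and 105, then 105 and 67.1 in culture. It was called with hyper-IL-6 in wild type (0.63 ± 0.22, adjusted p = 0.0239) and not with IL-6 (0.39 ± 0.22, adjusted p = 0.132) or in Il6ra-/- cells (0.31 ± 0.22, adjusted p = 0.214). That call was lost without hyper-IL-6 library 1 (adjusted p = 0.1) or naive wild-type library 2 (adjusted p = 0.0781).

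**Figure D4:**
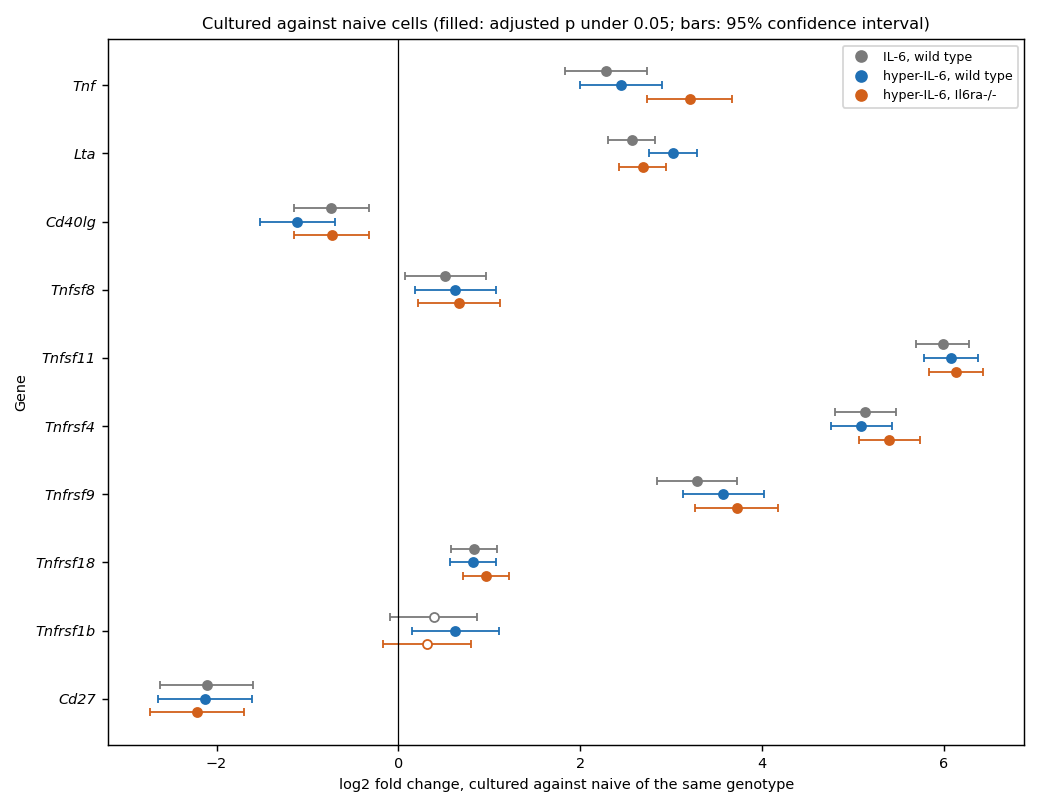
Log2 fold change of the 10 members in cultured against naive cells of the same genotype, for the 3 comparisons named in the legend, with 95% confidence intervals as bars and filled points for an adjusted p under 0.05. Tnfsf11 and Tnfrsf4 lie between 5.09 and 6.13, and Cd27 between -2.22 and -2.11.

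Between hyper-IL-6 and IL-6 in wild-type cells no member was called by edgeR or DESeq2, and 0.0% of 14926 genes were called. The dose, 63 and 20 ng/ml, differs along with the form of the cytokine. Lta, the 1 member with an unadjusted p under 0.05, was at 154 and 182 CPM with hyper-IL-6 and 115 and 130.4 with IL-6 (0.45 ± 0.11, interval 0.22 to 0.69, adjusted p = 1). Of all 14926 genes, 226 had an unadjusted p under 0.05. The log2 fold changes of the other 9 were 0.16 for Tnf, -0.38 for Cd40lg, 0.11 for Tnfsf8, 0.09 for Tnfsf11, -0.04 for Tnfrsf4, 0.29 for Tnfrsf9, -0.01 for Tnfrsf18, 0.24 for Tnfrsf1b and -0.02 for Cd27.

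In the hyper-IL-6 cultures, between Il6ra-/- and wild-type cells, no member was called by edgeR or DESeq2 either, with 0.0% of all genes called. Lta (-0.34 ± 0.11, interval -0.58 to -0.10) and Cd40lg (0.60 ± 0.19, interval 0.19 to 1.02) had an unadjusted p under 0.05, both with adjusted p = 1. Of all 14926 genes, 351 had an unadjusted p under 0.05. For Cd40lg the levels were 71.8 and 105 against 57.0 and 59.5 CPM, with no overlap. With no filter on low counts, 0.312% of 23735 genes were called, Cd40lg among them (0.60, adjusted p = 0.000723). Tnfsf11 (0.10, interval -0.13 to 0.32) and Tnfrsf18 (0.15, interval -0.10 to 0.40) had narrow intervals here. The other members were at 0.10 for Tnf, 0.12 for Tnfsf8, 0.19 for Tnfrsf4, -0.20 for Tnfrsf9, -0.36 for Tnfrsf1b and -0.02 for Cd27.

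Between naive cells of the genotypes no member was called by edgeR or DESeq2, and 0.0067% of all genes were called. Tnf, at 14.05 and 18.9 CPM in Il6ra-/- and 24.0 and 28.3 in wild-type cells, was the 1 member with an unadjusted p under 0.05 (-0.66 ± 0.21, interval -1.12 to -0.20, adjusted p = 0.369), and its groups did not overlap. So 1 of 10 members had such an unadjusted p, and 1554 of 14926 genes did. Tnf was called with no filter on low counts (-0.65, adjusted p = 0.000207). The log2 fold changes of the other 9 were -0.01 for Lta, 0.22 for Cd40lg, 0.07 for Tnfsf8, 0.04 for Tnfsf11, -0.12 for Tnfrsf4, -0.35 for Tnfrsf9, 0.01 for Tnfrsf18, -0.05 for Tnfrsf1b and 0.07 for Cd27. For the difference of the hyper-IL-6 culture response between genotypes, Il6ra-/- minus wild type, the log2 value of Tnf was 0.76 ± 0.28 (adjusted p = 0.563). No member was called in that test by edgeR or DESeq2, nor was any gene by edgeR (0.0%). An unadjusted p under 0.05 was found there for 1 of 10 members, Tnf, and for 1267 of 14926 genes. The values of the other 9 in that test were -0.33 for Lta, 0.38 for Cd40lg, 0.04 for Tnfsf8, 0.06 for Tnfsf11, 0.31 for Tnfrsf4, 0.15 for Tnfrsf9, 0.14 for Tnfrsf18, -0.31 for Tnfrsf1b and -0.09 for Cd27. Those naive wild-type and Il6ra-/- libraries also enter the culture comparisons above.

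The binding partners of the members were named by rule, whatever their change. OX40 ligand (Tnfsf4), 4-1BB ligand (Tnfsf9) and CD30 (Tnfrsf8, the receptor of Tnfsf8) were called higher in cultured than in naive cells and lower in the colon than before transfer in all 5 comparisons. Tnfsf4 was at 7.47 and 5.06 CPM before transfer and 0.703, 0.890 and 0.554 in the colon in wild-type cells (-3.10 ± 0.41, adjusted p = 0.000338), and at 0.235 ± 0.152 in naive and 12.5 ± 3.48 in IL-6 cultured cells (5.76 ± 0.41). Tnfsf9 was at 38.1 and 46.5 CPM before and 7.52, 6.76 and 6.71 after transfer (-2.60 ± 0.21, adjusted p = 1.60e-05), and at 1.81 and 2.46 in naive and 26.8 and 20.99 in IL-6 cultured cells (3.48 ± 0.23). Tnfrsf8 had means of 24.2 ± 4.26 CPM before transfer and 7.53 ± 2.57 in the colon (-1.68 ± 0.33, adjusted p = 0.00344), and of 0.233 ± 0.330 in naive and 14.2 ± 0.305 in IL-6 cultured cells. For Il6ra-/- cells the log2 fold changes of these 3 genes were -2.74, -1.83 and -2.07 after transfer and 4.79, 3.96 and 5.41 with hyper-IL-6.

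Of the other partners, Tnfrsf1a, the death-domain receptor of TNF, rose after transfer from 46.0 ± 7.79 to 71.2 ± 7.07 CPM in wild type (0.63 ± 0.19, adjusted p = 0.0309) and fell in culture from 73.0 ± 5.95 to 30.4 ± 1.92 with IL-6 (-1.27 ± 0.10). Ltb, the partner of lymphotoxin alpha, fell in culture from 698 ± 83.5 to 179.8 ± 40.0 CPM with IL-6 (-1.96 ± 0.15), where Lta rose, and was at 511 ± 362 before transfer and 426 ± 92.6 in the colon (-0.26, adjusted p = 0.606). Tnfrsf14, a receptor of lymphotoxin alpha and LIGHT, fell in culture from 60.9 ± 5.26 to 19.4 ± 0.211 CPM and did not pass after transfer (0.31, adjusted p = 0.27). Partners of low level came next. Cd40, the receptor of CD40 ligand, was at 5.40 CPM or less in all 20 libraries, Ltbr at 4.85 or less, and Tnfsf18, the GITR ligand, at 0.0890 or less. Cd70, the ligand of CD27, averaged between 1.42 and 1.98 CPM in the cultured groups and 0.221 or less elsewhere. Tnfrsf11a, or RANK, averaged 3.56 and 1.53 CPM in the colon and 0.103 or less elsewhere. Tnfrsf11b, the decoy receptor of RANK ligand, averaged between 1.53 and 2.40 CPM in the cultured groups and had 0 counts in the 4 naive libraries, where 3 counts come to 0.113 to 0.149 per library.

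Other ligands took separate courses. Of 7 tested in the transfer part, 3 rose and 2 fell in wild-type and 2 rose and 2 fell in Il6ra-/- cells. Over all genes, 17.1% were called higher and 15.8% lower in wild-type and 13.8% and 13.2% in Il6ra-/- cells. Fasl and Tnfsf10 (TRAIL), death ligands, led the rises among these 7. Fasl was at 8.12 and 4.86 CPM before and 58.0, 100.2 and 114 after in wild-type (3.80 ± 0.37), and at 4.66 and 3.84 before and 121, 159.6 and 169.7 after in Il6ra-/- cells (5.14 ± 0.40). Tnfsf10 had means of 26.9 ± 16.7 and 203 ± 27.3 CPM in wild-type and 24.6 ± 2.86 and 287 ± 21.3 in Il6ra-/- cells (2.91 ± 0.36 and 3.54 ± 0.37). Markers of CD8, NK and gamma-delta T cells, which also make Fas ligand, summed to 54.8 to 109 CPM before and 285 to 408 after in wild-type, and to 47.0 to 52.0 and 448 to 561 in Il6ra-/- cells, and their part was not tested. Of 8 tested in the culture part, 5 rose and 3 fell in each comparison. Over all genes, 36.8% to 37.5% were called higher and 33.5% to 34.4% lower there. Tnfsf14 (LIGHT) rose from 1.69 ± 0.182 to 97.4 ± 11.4 CPM with IL-6 (5.84 ± 0.24), and Tnfsf10 fell from 34.0 ± 3.499 to 2.92 ± 0.563 (-3.55 ± 0.25).

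Of 18 other receptors tested in the transfer part, 3 rose and 5 fell in wild-type and 2 rose and 4 fell in Il6ra-/- cells. Over all genes, 17.1% were called higher and 15.8% lower in wild-type and 13.8% and 13.2% in Il6ra-/- cells. The log2 fold changes of the 18 ran from -3.20 to 6.02 in wild-type and from -3.14 to 3.83 in Il6ra-/- cells. Tnfrsf13b (TACI), best known from B cells, was at 129 ± 40.0 CPM before transfer and 18.1 ± 0.459 in the colon in wild-type (-2.84 ± 0.25), and at 132 ± 43.1 and 23.3 ± 1.26 in Il6ra-/- cells (-2.50 ± 0.24). The B cell markers summed to 56.8 to 139.5 CPM before transfer and 17.7 to 85.3 in the colon. Of 7 tested, 2 were called lower in wild-type and 1 in Il6ra-/- cells, and 0 higher in either. The part of these markers was not tested. Of 18 tested in the culture part, 9 rose and 6 fell in both wild-type comparisons, and 8 rose and 4 fell in Il6ra-/- cells. The shares over all genes there were 36.8% to 37.5% higher and 33.5% to 34.4% lower. Tnfrsf21, or death receptor 6, rose from 0.161 ± 0.0484 to 14.1 ± 2.40 CPM with IL-6 (6.43 ± 0.31). The log2 fold changes of the 18 ran from -2.52 to 8.77 in that comparison.

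**Figure D5:**
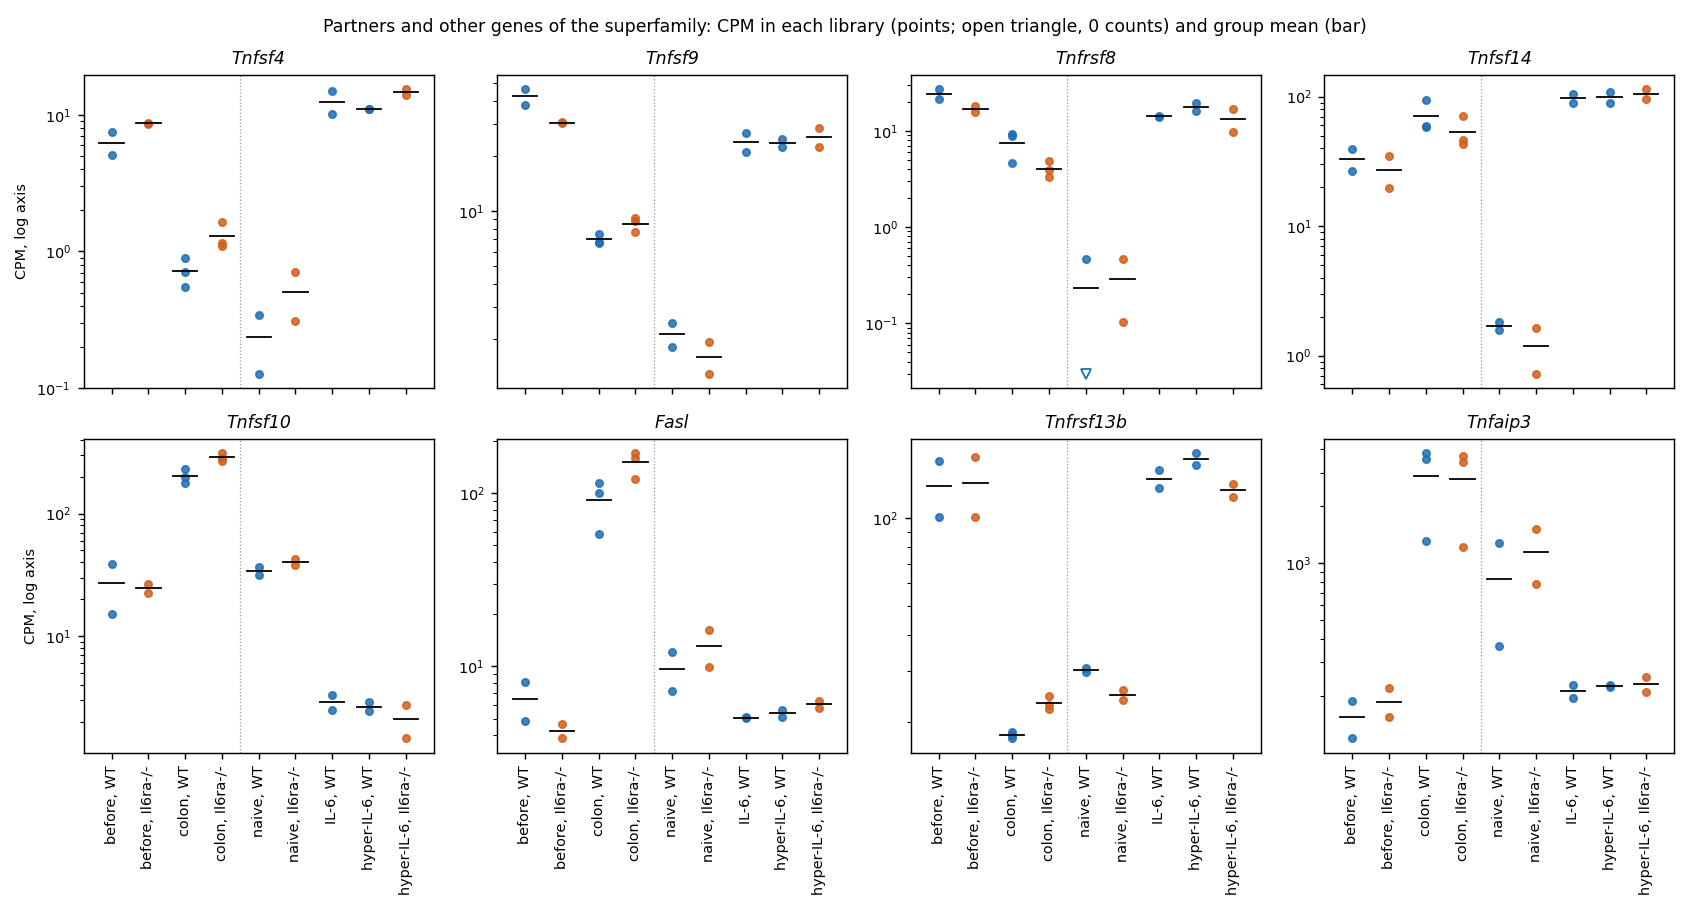
CPM of 8 partners and other genes of the pathway in each library (points, log axis, open triangles for 0 counts) with the group mean as a black line, wild type in blue and Il6ra-/- in orange. Tnfsf4, Tnfsf9 and Tnfrsf8 are higher in cultured than in naive cells and lower in the colon than before transfer, and Tnfsf10 and Fasl are highest in the colon.

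Downstream of the receptors, adaptor and regulator genes changed in both directions. Of 20 tested, 6 rose and 3 fell after transfer in wild-type cells, 3 rose and 2 fell in Il6ra-/- cells, and 5 rose and 12 fell in each culture comparison. Over all genes, 17.1% were called higher and 15.8% lower after transfer in wild-type and 13.8% and 13.2% in Il6ra-/- cells. In the culture comparisons 36.8% to 37.5% were called higher and 33.5% to 34.4% lower. Of the 20, Tnfaip3, the gene of A20, an inhibitor of NF-kB signalling, changed most after transfer. It was at 188 and 119.6 CPM before and 1314, 3527 and 3787 after in wild-type (4.22 ± 0.63, adjusted p = 0.000724), and at 154 and 219 before and 1210.3, 3417 and 3677 after in Il6ra-/- cells (3.89 ± 0.61, adjusted p = 0.00107). The lowest colon value of each genotype was that of experiment 1. Naive libraries were uneven, at 1273 and 368 CPM in wild-type and 1521 and 780.3 in Il6ra-/- cells, and cultured ones lay between 196 and 252. Traf5, an adaptor of OX40 and CD27 among others, went the other way to OX40, with 72.5 ± 1.61 CPM in naive and 6.16 ± 0.0688 in IL-6 cultured wild-type cells (-3.56 ± 0.14), and 11.3 ± 6.06 before transfer and 43.0 ± 4.22 in the colon (1.93 ± 0.34, adjusted p = 0.00204). Traf4 fell after transfer in both genotypes (-1.92 ± 0.19 and -1.28 ± 0.19). None of these other ligands, receptors and adaptors was called by edgeR between genotypes, in the difference of a response between genotypes, or between IL-6 and hyper-IL-6.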

How the data were processed

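The series holds 20 RNA libraries of sorted mouse CD4 T cells, of which the 10 of the transfer part used a TruSeq Stranded mRNA kit, per the labels' protocols. The authors deposited whole-number counts of reads per gene for each library. Per the submitters' processing notes they used GRCm38 (mm10), with HTSeq 0.7.2 and STAR 2.5.3, and the notes also name R 3.4.3, DESeq2 1.18.1 and SAMtools 0.1.18. The strand setting and annotation release are not given in the sources used here. Reads without a feature (18.1 to 31.9% per library) and ambiguous reads (0.526 to 0.844%) were left out of library totals. Names were matched for 37607 of 39179 IDs. Groups were taken from the labels.

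The transfer and culture parts were fitted separately, each with all its groups: TMM factors, filterByExpr, and edgeR 4.0.16's quasi-likelihood F test (limma 3.58.1, R 4.3.3) with Benjamini-Hochberg adjustment at 0.05, which is the test behind every adjusted p. On simulated counts the colon genotype comparison recovered 27 of 100 genes changed 2-fold and 77 of 100 changed 4-fold (13884 genes), and the hyper-IL-6 genotype comparison 78 and 97 of 100 (14542 genes). Among the unchanged genes, 7 were called in the first and 15 in the second. Genes of the lowest counts were not among those changed. Alternatives were DESeq2 1.42.0, RLE factors, no filter, a stricter filter (minimum count 50), a replicate block, an experiment term, the compared groups only, and leaving out each library. Replicate numbers were shared between groups. Deviations of same-numbered libraries correlated at 0.183 to 0.580 within a transfer stage (5 pairs), at -0.143 to 0.0793 across stages (8 pairs) and at -0.164 to 0.156 in culture (20 pairs). Where both groups hold 2 libraries, their 2 same-numbered pairs give the same value by construction, so these pairs are not independent. In the colon, different-numbered libraries of experiment 2 across genotypes correlated at 0.205 and 0.279 and same-numbered ones at 0.237 and 0.183, so in the colon the sharing went with the experiment and not with the number within it.

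The members and lists were chosen with earlier results of these data known. All 10 members are given in each comparison. Of the other lists up to 4 called genes are given, picked with regard to the size of their change, and larger changes in a list can be left out. Markers were given as sums of CPM. Promoter sequences are those of RefSeq.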

Additional observations from a re-analysis of the deposited data

How the results depend on the processing

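Among 44 called combinations of a member and a comparison, 0 changed sign under any alternative run. Members called between genotypes before transfer numbered 0 to 3 when 1 library was left out, with 3 only without wild-type library 0. Members called after transfer in Il6ra-/- cells numbered 5 to 8 (5 without colon library 0 or 2 or without library 1 before transfer, all Il6ra-/-), and those in the stage by genotype term 0 to 2, with 2 without wild-type library 0 before transfer. With no filter on low counts, 1 member was called between genotypes with hyper-IL-6 (Cd40lg), 1 in naive cells (Tnf) and 1 in the difference of the culture response (Tnf), against 0 in each otherwise. The cause was not tested.

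Leaving out 1 library also turned the sign of members that were not called. The log2 fold change between genotypes in the colon ran from -0.29 to 0.096 for Tnfrsf4, -0.060 to 0.24 for Tnfrsf9 and -0.17 to 0.25 for Cd27. Before transfer it ran from -1.20 to 0.41 for Lta, -0.49 to 1.04 for Cd40lg, -1.06 to 0.61 for Tnfsf11, -0.20 to 0.50 for Tnfrsf1b and -0.64 to 0.067 for Cd27. With the replicate number as a block over all groups, 8 members were called after transfer in wild-type cells and 7 in Il6ra-/- cells, where Lta was lost, and 8, 10 and 9 in the culture comparisons in the order of the text, where Tnfsf8 was lost with IL-6. The genotype comparisons kept 0 called under this block, and under the block within a stage the colon difference of Tnfrsf18 was 0.51 ± 0.17 (edgeR, adjusted p = 0.386). DESeq2 called 9, 8, 9, 10 and 9 members in these 5 comparisons and 0 between genotypes. Changes under 2-fold were not simulated, so the smallest change this depth and number of libraries can detect was not tested.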

Other observations

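Across the 9 group means of log2 CPM, which join both parts of the series and rest on 2 or 3 libraries each, 2 genes with the pattern most like each member were taken from 9337 genes by Pearson's r. Groups within a part share cells, culture or library preparation, so no p is given. The parts were made apart, and the labels give PMA and ionomycin for the culture part only. A value of r thus also takes in differences between the parts, whose share was not tested. Tnfsf11 had Prelid3b (r = 0.9995) and Uap1 (0.998), and Tnfrsf4 had Txnl1 (0.999) and Cks1b (0.999). Tnf was followed most closely by Clstn1 (0.992) and Cd44 (0.992), Lta by Sec22a (0.993) and Mt1 (0.992), and Tnfrsf9 by Arl3 (0.995) and Ei24 (0.992). For Cd27 the genes were Tbc1d30 (0.990) and Naglu (0.987), for Tnfrsf1b Dock5 (0.987) and Limk1 (0.985), and for Tnfsf8 Rnf6 (0.967) and Ipp (0.964). Cd40lg had the lowest values, with Fzd5 (0.956) and Ero1lb (0.956). Tnfrsf18 had Crem (0.983) and Sdf4 (0.983), and Sdf4 (chromosome 4, 155992872 to 156013610) lies just before Tnfrsf4 and Tnfrsf18 on the same strand.

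Among the members themselves, Lta and Tnfrsf4 were most alike over the 9 group means (r = 0.984), followed by Tnfsf11 and Tnfrsf4 (0.954). The neighbours Tnf and Lta had r = 0.69 and the neighbours Tnfrsf4 and Tnfrsf18 r = 0.5999. Tnfrsf1b and Cd27 had the most negative value (r = -0.863).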
